A study of Arabidopsis thaliana with 8 samples.

Results

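The transcript response of Arabidopsis thaliana rosette leaves to loss of FLU was measured in plants that overexpress the thylakoid-bound ascorbate peroxidase. The arrays titled flu over-tAPX 14-2 (flu tAPX from here on) were set against those titled over-tAPX 14-2 (tAPX), 2 of each, which is 4 of the 8 arrays in the series. The tAPX plants are Col with the peroxidase transgene of line 14/2, and the flu tAPX plants hold that transgene together with the flu allele SAIL_136_E05. Every plant of the comparison thus carried the transgene, all from 1 transgenic line, and its promoter is not given in the sources used. Plants were 3 weeks old, spent 8 h in darkness, and leaves were taken 2 h after the light came back, before bolting. The experiment was run 6 times with no fewer than 10 plants of a line, and an array read RNA combined over 3 runs, so the spread between arrays is one between pools. The remaining 4 arrays, of Col wild type (WT) and of flu SAIL_136_E05 without the transgene (flu), gave the matching response in plants with only their own peroxidase. No array was taken in the dark, so differences present before the light and a response to the light cannot be told apart.

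Free-text descriptions of these arrays disagree with the other labels. They name Ler in place of Col, call the tAPX plants flu, and give 30 and 60 min of light for tAPX arrays 1 and 2 and 60 and 120 min for flu tAPX arrays 1 and 2. Titles, source names, genotype entries and protocols give Col and 2 h for every array, and those were followed. By the free-text times, light would differ between the lines along with the mutation, and its part in the differences was not tested.

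FLU is a plastid protein that holds back the synthesis of 5-aminolevulinic acid, from which chlorophyll and heme are made. Without it, protochlorophyllide piles up in darkness and acts as a photosensitizer, passing light energy to oxygen so that singlet oxygen forms in the plastid. Ascorbate peroxidase on the thylakoid membrane removes a different oxygen species, hydrogen peroxide, which arises from superoxide formed at photosystem I. The flu mutant is widely used to follow how singlet oxygen in plastids changes nuclear gene expression, growth and cell death.

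The values are MAS5 signals, a brightness in arbitrary units on a linear scale, read by sets of short oligonucleotides called probe sets. Median signals of the 4 arrays lay between 153 and 162. The tAPX arrays correlated with each other at r = 0.981 and the flu tAPX arrays at 0.938, while correlations between the lines ran from 0.778 to 0.815, all over the tested probe sets on the log2 scale. TAPX, the gene of the overexpressed enzyme, had signals of 22960 and 22043 in tAPX and 22703 and 23222 in flu tAPX. The ranges of the lines overlapped and the log2 difference, 0.03 ± 0.15 (SE), did not pass (adjusted p = 0.900), although with poly-A scaling, described below, it was -0.69 and called. FLU has no probe set named in the annotation used here, and the mutation itself was not checked. Leaf mesophyll was marked by RCA, at 28989 and 30467 in tAPX and 24891 and 31222 in flu tAPX, and by PRK, at 20834 and 20482 and 9985 and 14193. Of other cell types, the guard-cell lineage genes SPCH and MUTE, the root-hair gene EXPA7 and the anther gene AMS were dim on all 4 arrays, between 5.32 and 76.8. FDH, put on the epidermal list by its symbol alone, had 7456 and 7875 in tAPX and 7683 and 9696 in flu tAPX (0.17 ± 0.17, not called). Whether its probe set reads the epidermal gene of that name was not checked. TRY, a MYB protein that spaces leaf hairs, was the other gene of that list tested. It had 334 and 293 in tAPX and 105 and 172 in flu tAPX and was called lower (-1.13 ± 0.29, adjusted p = 0.0142). FMA of guard cells (259 and 262 against 251 and 380) and SWEET11 of the phloem (5065 and 5988 against 4288 and 3887) were not called (0.24 ± 0.24 and -0.43 ± 0.18). With poly-A scaling SWEET11 was at -1.15 and called. TRY was not called without tAPX replicate 1 (-1.04) or 2 (-1.22) or flu tAPX replicate 1 (-0.81). The part of these cell types in the results was not tested. In such bulk samples, fewer cells of a type and less RNA per cell cannot be told apart.

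A large part of the measured transcriptome differed between flu tAPX and tAPX. Of 14947 probe sets tested, limma called 5014 (33.5%) at an adjusted p under 0.05, with 2243 higher and 2771 (18.5%) lower in flu tAPX. Called changes of at least 2-fold numbered 1720 (11.5%) higher and 1344 (8.99%) lower, and those of at least 4-fold 844 (5.65%) and 123 (0.823%). The last count was 382 without flu tAPX replicate 1 and 54 with a pseudocount of 64. Changes of 16-fold or more were seen in 146 probe sets (0.977%) on the high side and in 1 (0.00669%) on the low side, which has no gene in the annotation used. In none of the 5014 did the arrays of the lines overlap, but 68.1% of all tested probe sets did not overlap either. Where the lines of a called gene are said below to be apart, this describes its arrays and adds nothing to the call. The median log2 difference over all tested probe sets was -0.16. Counted by gene, with the brightest tested probe set of each, 1066 of 8039 named genes (13.3%) were higher and 1462 (18.2%) lower, with a median of -0.19. These are the backgrounds for the gene lists below, except for counts with poly-A scaling.

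The split between higher and lower depends on how arrays are scaled. MAS5 fixes the trimmed mean of each array, and the poly-A control probe sets had a mean log2 signal of 7.97 and 8.03 in tAPX and 8.87 and 8.57 in flu tAPX. When each array was scaled on those controls instead, the median of all tested probe sets moved from -0.16 to -0.84, and 13.4% of 9491 called probe sets were higher in place of 44.7% of 5014. Called changes of at least 4-fold then numbered 495 higher and 742 lower, so that their order turned, and those of at least 2-fold 1015 and 5802. Of all 14947 probe sets tested, 8221 were then called lower and 1270 higher. List counts given below with poly-A scaling are to be read beside these, since most probe sets are called lower there. Differences below are otherwise relative to the deposited scale. Without tAPX replicate 1 or 2 the count of called probe sets was 2942 or 2825, and without flu tAPX replicate 1 or 2 it was 5364 or 4537.

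**Figure D1:**
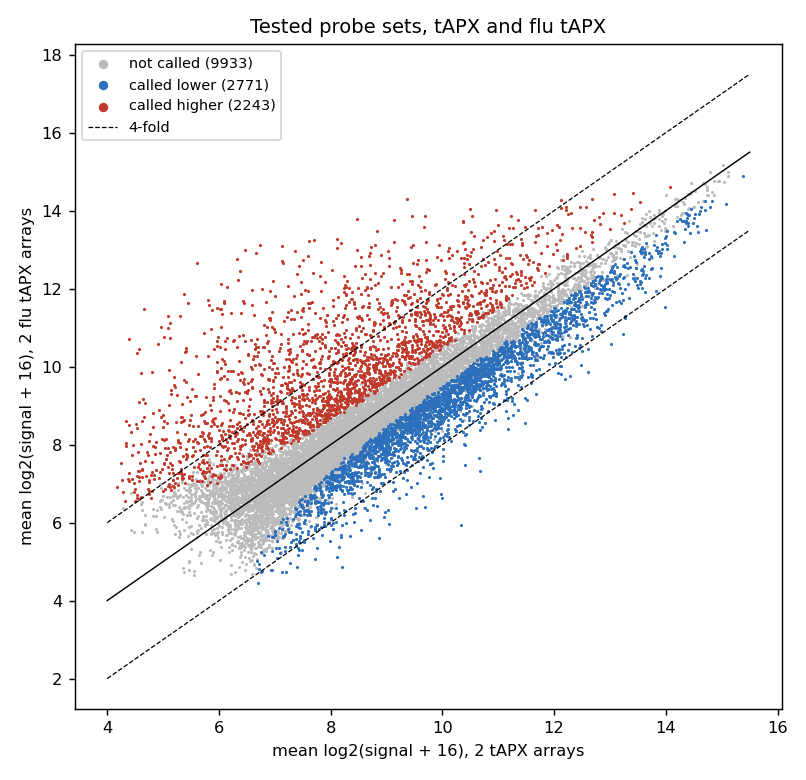
Mean log2(signal + 16) of the 2 tAPX arrays (horizontal) and the 2 flu tAPX arrays (vertical) for the 14947 tested probe sets, with the 2243 called higher in red and the 2771 called lower in blue. Lines mark equality and 4-fold differences. Many red points lie above the upper 4-fold line and few blue points below the lower one (844 against 123 called probe sets).

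Genes known as early markers of singlet oxygen in flu were listed together with EX1, a gene needed for the response. The list had 14 entries and 4 named genes, all tested. Of these 3 were called higher and none lower, with a median of 2.92. STZ, also called ZAT10, a zinc finger protein that represses transcription under stress, had signals of 171 and 160 in tAPX and 7354 and 6273 in flu tAPX, a log2 difference of 5.23 ± 0.18 (adjusted p = 9.45e-08). AT5G64870, which encodes a flotillin-like membrane protein, went from 64.4 and 109 to 1090 and 979 (3.38 ± 0.24, adjusted p = 4.29e-06). AT3G28580, an AAA-type ATPase gene, went from 42.6 and 24.2 to 216 and 290 (2.45 ± 0.34). In each of these 3 genes the dimmer flu tAPX array lay above the brighter tAPX array. EX1, which encodes the plastid protein EXECUTER1 needed for much of the singlet oxygen response, had 1141 and 955 in tAPX and 566 and 950 in flu tAPX and did not pass (-0.50 ± 0.25, adjusted p = 0.148). In a list of AAA-ATPase genes added after values were seen, 4 of 6 were higher and none lower (2 higher with poly-A scaling). The member with the largest difference was AT3G28600, which was dim in tAPX at 6.69 and 3.27 and reached 416 and 285 in flu tAPX (4.11 ± 0.47, adjusted p = 0.000116).

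Small heat shock proteins, which hold unfolding proteins in a soluble state, and other chaperones had some of the largest rises. Of 7 tested genes on the heat shock list 5 were called higher and none lower, with a median log2 difference of 3.94. Among named genes with a mean signal of at least 100 in the higher line, the largest called difference of all was that of AT5G51440, a mitochondrial small heat shock protein. It stood at 85.9 and 85.6 in tAPX and 8308 and 7129 in flu tAPX, a log2 difference of 6.24 ± 0.18 (adjusted p = 9.45e-08). The cytosolic member AT2G29500 went from 102 and 149 to 10129 and 4447 (5.59 ± 0.39), and the cytosolic member AT1G53540 from 27.9 and 78.8 to 4898 and 1633 (5.46 ± 0.63). In both, flu tAPX array 1 was the brighter one and both arrays stood above tAPX. AT5G48570, the co-chaperone ROF2 of the FKBP type, went from 528 and 487 to 9303 and 6915 (3.94 ± 0.21). AT5G37670 was at the edge of the threshold (1.16 ± 0.40, adjusted p = 0.0462) and lost its call without tAPX replicate 1 (1.15) or 2 (1.17), without flu tAPX replicate 1 (0.44) or either WT or flu array, and with poly-A scaling (0.49), and it stood at more than 1.5 times its size without flu tAPX replicate 2 (1.88).

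Partner proteins of Hsp70 and Hsp90 were taken as an added list, in which 8 of 13 tested genes were higher and none lower (median 1.23, or 0.53 with poly-A scaling). Hop3, which links Hsp70 to Hsp90, was at 41.9 and 59.5 in tAPX and at 3021 and 2201 in flu tAPX (5.29 ± 0.57, adjusted p = 7.14e-05). Fes1A, a nucleotide exchange factor of Hsp70, went from 792 and 841 to 9931 and 8804 (3.49 ± 0.15, adjusted p = 2.46e-07). Neither gene had overlapping arrays. The DnaJ-type genes AT2G20560 and AT1G71000 rose by 4.32 ± 0.23 and 4.98 ± 0.46. The cytosolic Hsp70 gene AT3G09440, bright already in tAPX at 8386 and 8832, reached 22050 and 22127 (1.36 ± 0.17, adjusted p = 0.000210).

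**Figure D2:**
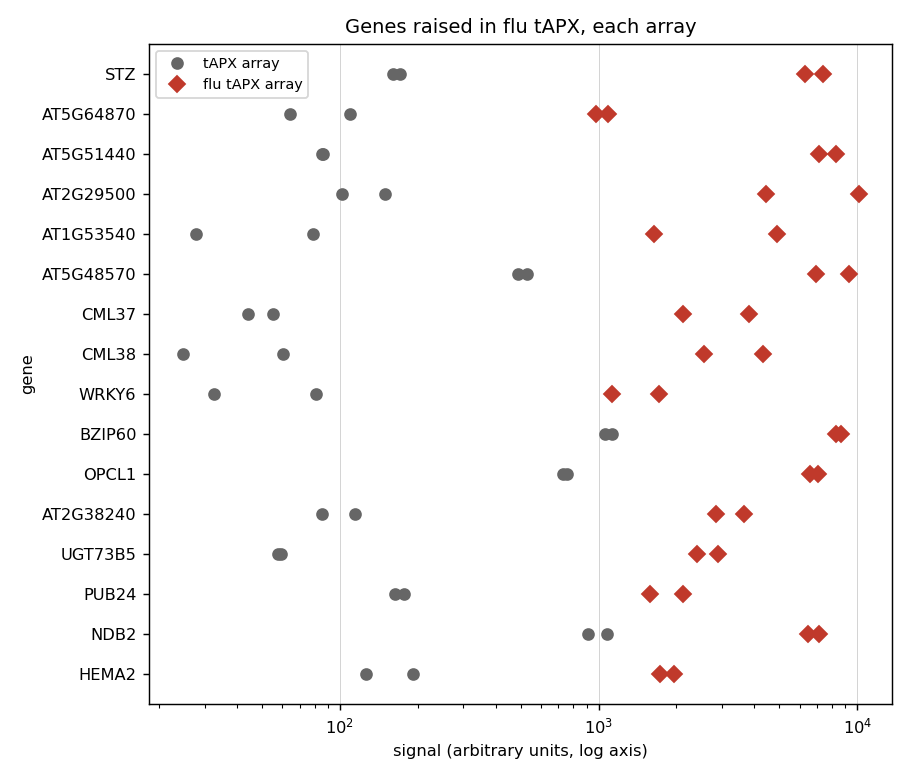
Signals (log axis, arbitrary units) of 16 genes raised in flu tAPX, one point for each array, with tAPX in grey and flu tAPX in red. The points of the lines are apart in every gene shown, as in all 5014 called probe sets. The flu tAPX arrays lie closer together in AT5G51440 (8308 and 7129) than in AT1G53540 (4898 and 1633).

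Calmodulin-like proteins bind calcium and pass its signals on, and 5 of 6 tested ones were higher and none lower (median 2.31). CML37 went from 44.3 and 55.2 to 3808 and 2127 (log2 5.45 ± 0.30, adjusted p = 7.67e-07) and CML38 from 60.3 and 24.8 to 4328 and 2552 (5.90 ± 0.33, adjusted p = 8.88e-07). CML42 went from 321 and 368 to 2344 and 1266 (2.27 ± 0.27). In these genes flu tAPX array 1 was the brighter one, and both arrays stood above both tAPX arrays. CML41 (1.22 ± 0.20) lost its call with poly-A scaling (0.52), and CML23 (2.36 ± 0.64) without tAPX replicate 2 (1.64) or flu tAPX replicate 1 (1.67).

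Transcription factors of stress and immunity rose in part. WRKY factors bind W-box sequences in promoters, and 3 of 5 tested ones were higher. WRKY6 went from 80.9 and 32.6 to 1127 and 1711 (4.36 ± 0.36, adjusted p = 1.14e-05) and WRKY53 from 395 and 280 to 1628 and 2467 (2.53 ± 0.25). WRKY22 (1.74 ± 0.47) did not pass without tAPX replicate 1 (1.91) or 2 (1.57), or with poly-A scaling (1.09). Among 13 tested bHLH and bZIP factors 4 were higher and none lower, with a median of 0.54 that turned to -0.10 with poly-A scaling, where 2 were higher. BZIP60, which acts in the unfolded protein response of the endoplasmic reticulum, went from 1130 and 1061 to 8272 and 8649 (2.93 ± 0.15, adjusted p = 6.07e-07). BZIP28 of the same response went from 600 and 548 to 1326 and 1725 (1.37 ± 0.19). In both factors the lines were clearly apart. They were also the called members among the 3 tested genes of the list for that response.

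Jasmonate, a lipid-derived hormone of wounding, had some raised genes in its synthesis, its control and its breakdown. Its first list had 24 entries, of which only 2, OPCL1 and JMT, were named and tested. OPCL1, a ligase that readies precursors for peroxisomal oxidation, stood at 753 and 730 in tAPX and 6575 and 7067 in flu tAPX (log2 3.17 ± 0.15, adjusted p = 3.56e-07). JMT, which methylates jasmonate, went from 297 and 285 to 893 and 1096 (1.71 ± 0.19). ORA47, an AP2/ERF factor that switches on jasmonate synthesis genes, went from 98.1 and 93.4 to 2213 and 2085 (4.28 ± 0.23, adjusted p = 6.74e-07). In none of the 3 did the lines overlap. All 3 tested genes for oxygenases that inactivate jasmonate rose, AT2G38240 from 114 and 85.5 to 3653 and 2849 (4.82 ± 0.20, adjusted p = 2.13e-07), AT5G05600 from 383 and 427 to 8912 and 8118 (4.34 ± 0.15) and JRG21 from 73.9 and 52.9 to 564 and 707 (3.04 ± 0.25). Of the MYC factors of jasmonate signalling, MYC3 was higher (1.27 ± 0.21, not called with poly-A scaling at 0.57). MYC4 was lower (-1.34 ± 0.35) and lost its call without tAPX replicate 1 (-1.15) or flu tAPX replicate 2 (-0.74). The oxygenases and the regulators ORA47, MYC3 and MYC4 were listed after values were seen.

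Among families that modify or move small molecules, some had many raised members. UDP-glycosyltransferases attach sugars to small molecules, and of 33 tested 13 were higher and 4 lower. Their median was 0.37, or -0.35 with poly-A scaling, where 11 were lower. UGT73B4 went from 8.73 and 6.77 to 1542 and 1263 (5.89 ± 0.26, adjusted p = 2.65e-07), UGT73B5 from 57.7 and 59.0 to 2902 and 2396 (5.16 ± 0.21) and UGT76E12 from 32.1 and 4.40 to 2529 and 1676 (6.05 ± 0.41). Where tAPX signals are this dim, the size of the difference depends on the pseudocount of 16. UGT76B1, which glycosylates salicylic acid and isoleucic acid, had a smaller rise of 1.65 ± 0.22. On the low side UGT78D1, a rhamnosyltransferase of flavonols, went from 1380 and 1428 to 305 and 536 (-1.75 ± 0.25). UGT88A1 fell by 1.28 on the log2 scale (SE 0.22).

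Glutathione transferases, which conjugate glutathione to reactive compounds, had 2 of 11 tested genes higher and 3 lower, shares near those of all named genes (13.3% higher and 18.2% lower). GSTU25 went from 21.2 and 8.13 to 2091 and 1106 (5.68 ± 0.52, adjusted p = 2.26e-05). GSTU27 fell from 1998 and 1863 to 649 and 613 (-1.59 ± 0.17) and GSTU18 from 1865 and 1924 to 1020 and 1061 (-0.85 ± 0.17). In all 3 the lines were apart. GSTU22 was higher (1.81 ± 0.43) but not called without tAPX replicate 2 (1.48) or flu tAPX replicate 1 (1.40). GSTL3 (-0.47 ± 0.14) lost its call without tAPX replicate 1 (-0.49) or 2 (-0.45), flu tAPX replicate 1 (-0.40) or either WT array. Of 16 cytochrome P450 genes 3 were higher and 2 lower, again near those shares, with 0 lower without tAPX replicate 1 or 2 and 1 higher and 6 lower with poly-A scaling.

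MATE transporters, which move small molecules out of the cytosol, were added as a family after values were seen. Of 24 tested genes 12 were higher and 2 lower (median 0.69, or 0.05 with poly-A scaling). The count of lower genes was 0 without tAPX replicate 2 and 1 without tAPX replicate 1 or flu tAPX replicate 1. AT5G52050 stood at 8.89 and 56.9 in tAPX and 1296 and 1379 in flu tAPX (4.99 ± 0.41, adjusted p = 1.22e-05). AT3G23550 went from 202 and 243 to 4715 and 4507 (4.28 ± 0.19) and AT1G61890 from 566 and 524 to 9807 and 9038 (4.07 ± 0.15). All 3 were far above tAPX on both arrays. Oxidases of the berberine-bridge type, another added family, had 8 of 12 higher and 2 lower, or 1 lower without any 1 of the 4 arrays. AT1G26380, known as FOX1 and placed in the synthesis of a cyanogenic defence compound, went from 206 and 103 to 2963 and 4338 (4.47 ± 0.30, adjusted p = 2.91e-06). AT4G20860 rose by 3.97 ± 0.30 and AT4G20830 by 3.30 ± 0.18. AT5G44410 of the same family went the other way, from 207 and 197 to 49.4 and 75.9 (-1.49 ± 0.30).

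U-box ubiquitin ligases tag proteins for breakdown, and several restrain immune signalling. Of 9 tested genes on the list 5 were called higher and none lower (median 2.28). The lowest difference was -1.64, not called, and with poly-A scaling 2 were called lower. PUB24 went from 164 and 177 to 1588 and 2124 (3.31 ± 0.20, adjusted p = 1.46e-06), PUB23 from 81.6 and 70.6 to 1040 and 1513 (3.79 ± 0.27), and PUB19, known from drought signalling, from 167 and 186 to 1903 and 2005 (3.35 ± 0.28). PUB22 and PUB43 rose by 2.34 ± 0.51 and 2.28 ± 0.24. A list of receptor kinases and their partners had 18 entries, but only 3 genes of it were named on the array. All 3 were tested and rose, and the rest of the list was not read. BIK1, a cytoplasmic kinase that relays signals of immune receptors, went from 402 and 416 to 3593 and 4814 (3.30 ± 0.23, adjusted p = 3.71e-06). The receptor-like kinase B120 went from 52.9 and 34.5 to 2860 and 2721 (5.57 ± 0.50). The lines did not overlap in either. EFR, the receptor for bacterial elongation factor Tu, was higher too (2.09 ± 0.62), though not without tAPX replicate 2 (1.20) or flu tAPX replicate 2 (1.91). SAG101, a partner of EDS1 in immunity and the 1 tested gene of the salicylate list, went from 169 and 131 to 359 and 578 (1.52 ± 0.28).

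Mitochondrial stress genes held 2 rises among 4 tested genes. NDB2, an alternative NADH dehydrogenase on the outer face of the inner membrane, went from 1074 and 910 to 6478 and 7147 (2.76 ± 0.16, adjusted p = 8.95e-07). AT2G21640, a widely used marker of oxidative stress in mitochondria, went from 88.6 and 110 to 3460 and 897 (3.96 ± 0.51). The flu tAPX arrays of AT2G21640 were far from each other, yet both lay above tAPX. NDB1 and NDC1, the other dehydrogenases tested, had differences of -0.54 ± 0.21 and -0.43 ± 0.20 that did not pass. AT5G66650, a protein of the mitochondrial calcium uniporter family named for its interaction p and on no list, went from 59.0 and 51.2 to 1723 and 1674 (4.59 ± 0.21, adjusted p = 3.11e-07). Whether this family member acts in mitochondria was not checked.

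Smaller groups rose in part. In phenylpropanoid metabolism CCR2, which reduces cinnamoyl-CoA for lignin, went from 38.1 and 6.73 to 2284 and 2118 (5.98 ± 0.35, adjusted p = 1.20e-06). In the shikimate and tryptophan pathways, an added list, AT1G22410, a DAHP synthase at the entry, went from 3273 and 3164 to 9138 and 9619 (1.54 ± 0.14). AT2G04400, the indole-glycerol-phosphate synthase, went from 2251 and 2589 to 9341 and 8616 (1.89 ± 0.17). Neither gene had overlapping lines. Auxin genes had 2 of 3 tested higher (1 with poly-A scaling), GH3.3, which conjugates auxin to amino acids, by 2.37 ± 0.45 (1.53 without tAPX replicate 1) and the repressor gene IAA18 by 1.17 ± 0.18 (0.46 and not called with poly-A scaling). Of 19 tested membrane traffic genes 6 were higher and 1 lower, the latter not called without flu tAPX replicate 1 or either tAPX array. Their median of -0.02 was -0.72 with poly-A scaling, where 2 were higher and 9 lower. TET8, a tetraspanin found on extracellular vesicles, went from 1976 and 1864 to 11799 and 10991 (2.56 ± 0.16, adjusted p = 1.46e-06). The ESCRT-III genes VPS2.1, VPS20.1 and VPS60.1, which shape endosomal membranes, had rises of 1.13 ± 0.19, 1.27 ± 0.23 and 1.26 ± 0.19 that were not called with poly-A scaling (0.41, 0.58 and 0.56).

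Some raised genes reached high signals. AT4G01870, a tolB-related protein, went from 739 and 564 to 19112 and 21209 (4.93 ± 0.28, adjusted p = 8.95e-07). AT5G35735, a membrane protein related to cytochrome b561, went from 1653 and 1283 to 13884 and 16052 (3.34 ± 0.17) and AT3G16530, a legume lectin, from 4661 and 4239 to 16626 and 17490 (1.94 ± 0.14). All were bright on both flu tAPX arrays and apart from tAPX. Among the remaining large rises were AT4G39670 of the glycolipid transfer family, from 150 and 101 to 9302 and 8203 (5.98 ± 0.20), the VQ-motif gene AT2G22880, from 5.54 and 8.80 to 1775 and 943 (5.83 ± 0.33), and AT3G02840, an armadillo-repeat gene, from 55.4 and 49.6 to 3510 and 3102 (5.60 ± 0.29). XTH18, an enzyme that cuts and rejoins xyloglucan, went from 24.9 and 13.5 to 2313 and 1248 (5.63 ± 0.47).

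Several lists of plastid genes had lowered members. Tetrapyrrole synthesis, the pathway that FLU holds back, had 6 of 8 tested genes lower and 1 higher (median -0.99). The gene that rose was HEMA2, which encodes one of the forms of glutamyl-tRNA reductase, the enzyme of the first committed step, from 192 and 126 to 1724 and 1954 (3.43 ± 0.29, adjusted p = 1.45e-05). Downstream, the uroporphyrinogen decarboxylase genes HEME1 and HEME2 went from 2449 and 2391 to 859 and 1183 (-1.25 ± 0.18) and from 2439 and 2349 to 1061 and 1167 (-1.09 ± 0.15). CHLI2, a subunit of magnesium chelatase, fell by 0.95 on the log2 scale (SE 0.21). PORB, which reduces protochlorophyllide in the light, stood at 4686 and 5018 in tAPX and 2165 and 1485 in flu tAPX (-1.43 ± 0.19, adjusted p = 0.000320). HEMA2 thus stood above tAPX on both arrays and the decarboxylases and PORB below it. CHLM, the magnesium-protoporphyrin methyltransferase (-0.82 ± 0.21), lost its call without tAPX replicate 1 (-0.68). GSA1, which forms 5-aminolevulinic acid (-1.04 ± 0.28), lost it without tAPX replicate 1 (-1.16) or 2 (-0.91) or flu tAPX replicate 1 (-0.54).

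**Figure D3:**
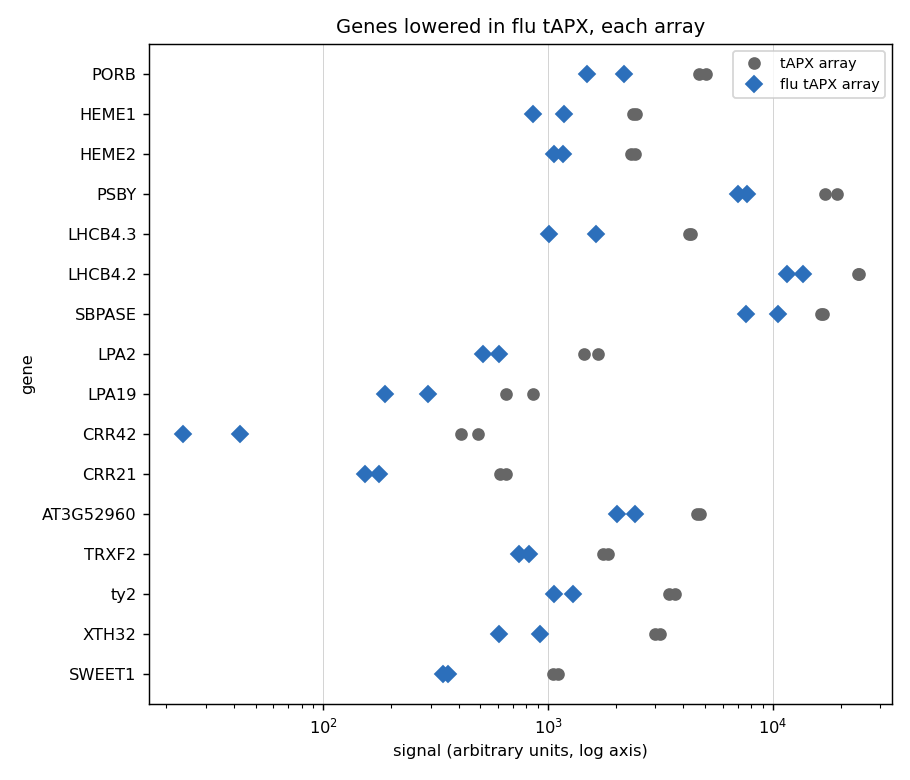
Signals (log axis, arbitrary units) of 16 genes lowered in flu tAPX, one point for each array, with tAPX in grey and flu tAPX in blue. The points of the lines are apart in every gene shown, as in all 5014 called probe sets. CRR42 stood at 42.8 and 23.8 in flu tAPX against 410 and 488 in tAPX.

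Nuclear genes of the photosystems, their antennae and the ATP synthase had 8 of 9 tested members lower and none higher (median -0.79), with 5 lower without tAPX replicate 2 or with quantile normalization. PSBY of photosystem II went from 17109 and 19302 to 7697 and 7024 (-1.30 ± 0.16, adjusted p = 0.000168). Of the minor antenna genes, LHCB4.3 went from 4322 and 4233 to 1006 and 1627 (-1.73 ± 0.22) and LHCB4.2 from 24070 and 23936 to 11573 and 13561 (-0.94 ± 0.15). PSAN of photosystem I and PSBW of photosystem II had log2 differences of -0.74 ± 0.15 and -0.79 ± 0.16. These 5 genes kept their call under every alternative tried. The remaining called genes were less stable. PSAE-1 (-0.70 ± 0.19) was not called without tAPX replicate 2 (-0.58) or flu tAPX replicate 2 (-0.43), and ATPC1 (-0.54 ± 0.16) and LHCB4.1 (-0.62 ± 0.19) not without tAPX replicate 1 (-0.59 and -0.68) or 2 (-0.48 and -0.57) or flu tAPX replicate 1 (-0.38 and -0.38). All 3 also lost it with quantile normalization (-0.47, -0.37 and -0.43).

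Of 4 carbon fixation and photorespiration genes 3 were lower, or 1 without tAPX replicate 1 or 2. SBPASE, the Calvin cycle bisphosphatase, went from 16762 and 16445 to 7627 and 10528 (-0.89 ± 0.18, adjusted p = 0.00360). The other calls, of PRK, phosphoribulokinase (-0.79 ± 0.19), and HPR, hydroxypyruvate reductase (-0.61 ± 0.20), were lost without tAPX replicate 1 (-0.78 and -0.68) or 2 (-0.81 and -0.55), and that of HPR also without flu tAPX replicate 1 (-0.38) or either WT array. RCA, the activase of Rubisco, with the signals given above, did not pass (-0.09 ± 0.15, adjusted p = 0.677). Whether signals this bright understate a difference was not tested.

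Factors that assemble the thylakoid complexes were lower in 9 of 12 tested genes (median -1.11), with none higher. LPA2 and LPA19, assembly factors of photosystem II, went from 1444 and 1664 to 607 and 513 (-1.45 ± 0.19) and from 653 and 855 to 291 and 188 (-1.61 ± 0.27). PSB27, a lumenal assembly protein on an added list, went from 10972 and 13780 to 5866 and 4789 (-1.21 ± 0.17). HCF101, an iron-sulphur scaffold for photosystem I, fell by 1.09 on the log2 scale (SE 0.22). PAM68 (-1.18 ± 0.26) lost its call without tAPX replicate 1 (-1.11), and CRR41 (-0.98 ± 0.22) and LPA66 (-1.13 ± 0.28) without tAPX replicate 2 (-0.86 and -0.96).

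The plastid NDH complex carries part of the cyclic electron flow around photosystem I. CRR42, needed for its assembly, stood at 410 and 488 in tAPX and 42.8 and 23.8 in flu tAPX, among the 15 lowest called differences of named genes (-3.26 ± 0.53, adjusted p = 0.00111). CRR21, which edits an ndh transcript, went from 612 and 648 to 177 and 153 (-1.84 ± 0.21, adjusted p = 0.000116). The subunit genes NdhL, NdhN and NdhS had log2 differences of -1.81 ± 0.23, -1.82 ± 0.18 and -1.68 ± 0.19, NdhN going from 2897 and 3192 to 915 and 791. In all 5 genes both flu tAPX arrays lay below tAPX. On an added list of NDH and cyclic flow genes, 7 of 13 were lower and none higher.

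Antioxidant genes were lower in part, and thioredoxin and glutaredoxin genes moved both ways. In reactive oxygen scavenging 5 of 10 tested genes were lower and none higher (median -0.75). That count was 1 without tAPX replicate 1, 2 without tAPX replicate 2 and 9 with poly-A scaling. AT3G52960, a chloroplast peroxiredoxin, went from 4577 and 4725 to 2035 and 2425 (-1.06 ± 0.16, adjusted p = 0.000589). NTRC, a plastid thioredoxin reductase that serves peroxiredoxins, fell by 0.95 on the log2 scale (SE 0.22) but was not called without tAPX replicate 1 (-0.84) and stood at -0.61 without flu tAPX replicate 1. SAPX, the stromal ascorbate peroxidase, had 2725 and 2468 in tAPX and 1985 and 2600 in flu tAPX, ranges that overlapped, and did not pass (-0.19 ± 0.18, adjusted p = 0.444). Of 7 thioredoxin and glutaredoxin genes 2 were lower and 1 higher, beside 18.2% and 13.3% of all named genes. With poly-A scaling 4 were lower. Their median was -0.22, or -0.84 without flu tAPX replicate 1. TRXF2, a thioredoxin that activates Calvin cycle enzymes, went from 1855 and 1760 to 822 and 741 (-1.19 ± 0.16) and ty2, a y-type plastid thioredoxin, from 3439 and 3658 to 1290 and 1060 (-1.59 ± 0.17, adjusted p = 7.79e-05). GRX480, a glutaredoxin of defence signalling, rose from 130 and 124 to 3262 and 1596 (4.01 ± 0.34).

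Genes of cell wall growth moved both ways. Among 27 tested genes 9 were lower and 5 higher (median -0.42). Without tAPX replicate 1, 5 were lower, and without tAPX replicate 2, 3 were higher. With poly-A scaling 16 were lower and 2 higher. XTH32, a xyloglucan enzyme like XTH18 above, went from 3000 and 3153 to 605 and 918 (-2.02 ± 0.20, adjusted p = 4.11e-05). The expansins EXPA8 and EXPB1, which loosen walls, went from 1277 and 1135 to 277 and 352 (-1.89 ± 0.19) and from 534 and 406 to 88.7 and 201 (-1.68 ± 0.33). Besides XTH18, the rises held IRX15-L of xylan synthesis, from 64.2 and 72.9 to 1076 and 786 (3.47 ± 0.50). On a list of pectin enzymes added after values were seen, 3 of 7 were lower (6 with poly-A scaling). The 3 were already named for being among the 15 lowest called differences of named genes. Their place there is thus no separate result about these enzymes. AT1G23205, of the invertase and pectin methylesterase inhibitor family, went from 986 and 1015 to 67.0 and 103 (-3.35 ± 0.27, adjusted p = 1.09e-05). AT1G60590 and AT1G67750, of the pectin lyase type, went from 1306 and 1386 to 145 and 182 (-2.93 ± 0.20) and from 280 and 258 to 45.4 and 11.6 (-2.79 ± 0.40).

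Of 12 tested sugar genes 3 were lower and 2 higher, shares near those of all named genes (18.2% and 13.3%). Without tAPX replicate 1, 1 was lower, and with poly-A scaling 8 were. SWEET1, a glucose transporter, went from 1047 and 1105 to 357 and 342 (-1.58 ± 0.17, adjusted p = 8.36e-05), while SWEET4 of the same family went from 228 and 206 to 625 and 601 (1.43 ± 0.20). AMY1, an amylase, rose from 136 and 123 to 340 and 495 (1.55 ± 0.23). In the serine carboxypeptidase-like family 5 of 14 were lower, scpl26 at -1.18 ± 0.19, and none was called higher. The count was 2 without tAPX replicate 2 and 12 with poly-A scaling. Named genes outside the lists with large falls included AT3G15570 of the NPH3 family, named for a phototropism protein, from 1587 and 1647 to 120 and 173 (-3.35 ± 0.22, adjusted p = 2.55e-06). AT5G48490, a DIR1-like lipid transfer protein, went from 757 and 821 to 119 and 61.9 (-2.97 ± 0.51).

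Plant defensins, small antifungal proteins, had 3 of 4 tested genes lower, or 0 without tAPX replicate 2 and 1 without flu tAPX replicate 2. PDF1.2, the usual marker of joint jasmonate and ethylene signalling, stood at 1538 and 2065 in tAPX and 694 and 647 in flu tAPX (-1.39 ± 0.28, adjusted p = 0.00410). It did not pass without tAPX replicate 2 (-1.18). PDF1.2b (-1.54 ± 0.43) had 1664 and 2828 in tAPX and 1105 and 486 in flu tAPX, and LCR68 (-1.83 ± 0.52) had 1687 and 2131 and 810 and 337. Both lost their call without tAPX replicate 2 (-1.16 and -1.66) or flu tAPX replicate 2 (-0.96 and -1.21), and LCR68 also without tAPX replicate 1 (-1.99).

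The 68 tested plastid-encoded genes had a median of -0.11, or -0.83 with poly-A scaling, when the median of all probe sets was -0.84. limma called 5 of them lower (10 without flu tAPX replicate 1, 59 with poly-A scaling) and none higher, rps16 (-0.90 ± 0.21), ycf3 (-0.69 ± 0.17), rps15 (-0.77 ± 0.24), rps19 (-0.45 ± 0.14) and rpoC1 (-0.47 ± 0.16), genes of ribosomal proteins, of photosystem I assembly and of the plastid RNA polymerase. Each lost its call without tAPX replicate 1 (-0.70, -0.60, -0.61, -0.42 and -0.38), and the last 3 also without tAPX replicate 2 (-0.92, -0.48 and -0.55) or flu tAPX replicate 2 (-0.71, -0.40 and -0.47), and rpoC1 without flu tAPX replicate 1 (-0.46). Leaving out either WT array also ended the calls of rps19 and rpoC1. How the labelling read transcripts of this genome, which carry little poly(A), was not tested. None of 7 nuclear genes for plastid gene expression, of 8 glutamate receptor and cation exchanger genes, or of 3 cold-regulated genes passed in limma, with medians of -0.30, -0.07 and -0.49.

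**Figure D4:**
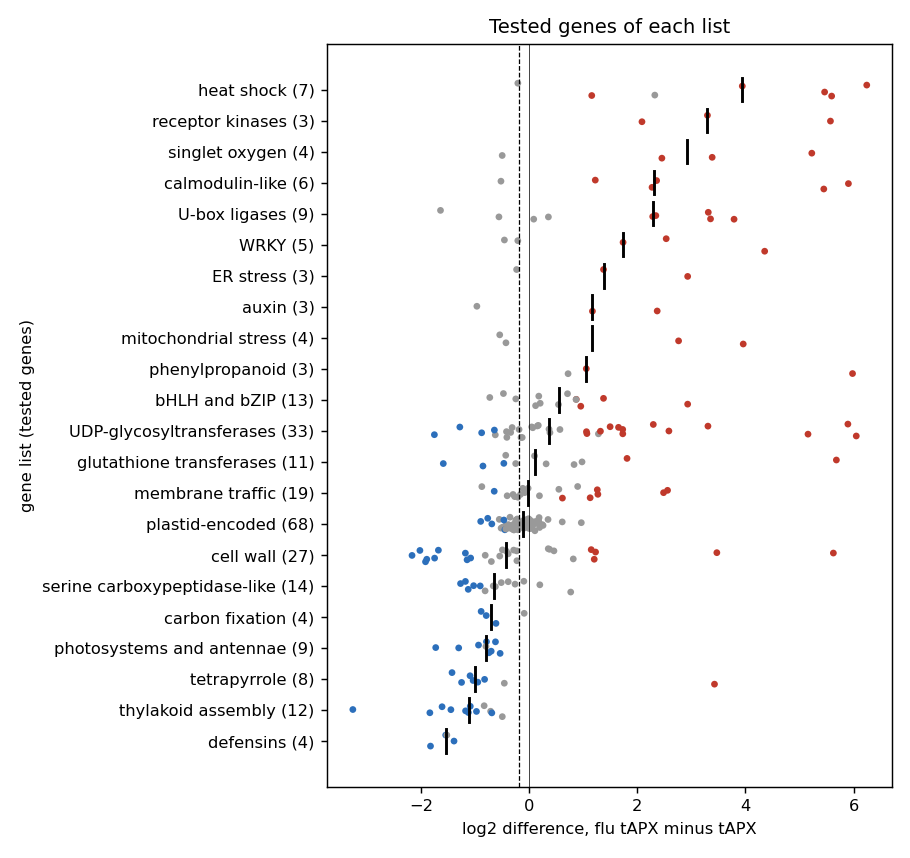
Log2 difference, flu tAPX minus tAPX, of each tested gene (points) in 22 gene lists ordered by their median (bars), with genes called higher in red, called lower in blue and not called in grey. The dashed line is the median of all named genes, -0.19. Heat shock, receptor kinase and singlet oxygen genes have high medians, and thylakoid assembly, tetrapyrrole and defensin genes low ones.

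The response can be set beside that to flu in plants without the transgene, whose means come from 4 other arrays. Both responses take the spread of a probe set from the same fit to all 8 arrays. Their calls are therefore not independent of each other. Of 1349 probe sets called at least 2-fold higher in flu against WT, 1283 (95.1%) were called higher in flu tAPX against tAPX, and none lower. Read from the other side, 1440 (83.7%) of the 1720 called at least 2-fold higher here were also called higher there. Of 574 called at least 2-fold lower in flu against WT, 443 (77.2%) were called lower here and 1 higher. Of the 1344 called at least 2-fold lower here, 683 (50.8%) were called lower there. The 661 falls without such a call had a median log2 difference of -1.35 here and -0.46 there, and 577 of them had the same sign. They were picked for a call here and none there, so the larger median here follows from the choice. In the mirror set, 131 were called at least 2-fold lower there and not called lower here. Of those 131, 118 had the same sign here. In flu against WT, 11.4% of all probe sets were called higher and 12.5% lower.

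Calling a gene in only 1 background does not show that the responses differ, so the interaction, the response here minus the response in flu against WT, was tested over all probe sets. limma called 0 of 14947 (0.0%), with 1031 (6.9%) at an unadjusted p under 0.05, and the smallest adjusted p was 0.719. Of 1262 probe sets called at least 2-fold higher in both backgrounds, 991 (78.5%) had the larger difference in flu tAPX against tAPX, with a median interaction of 0.33, but with poly-A scaling the share was 13.9% and the median -0.45. Of 368 called at least 2-fold lower in both, 255 (69.3%) fell further here, with a median interaction of -0.16, and with poly-A scaling these were 98.6% and -0.94. The interaction gained calls in 2 settings, 185 (6 higher and 179 lower) without flu tAPX replicate 1 and 1757 (2 higher and 1755 lower) with poly-A scaling.

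**Figure D5:**
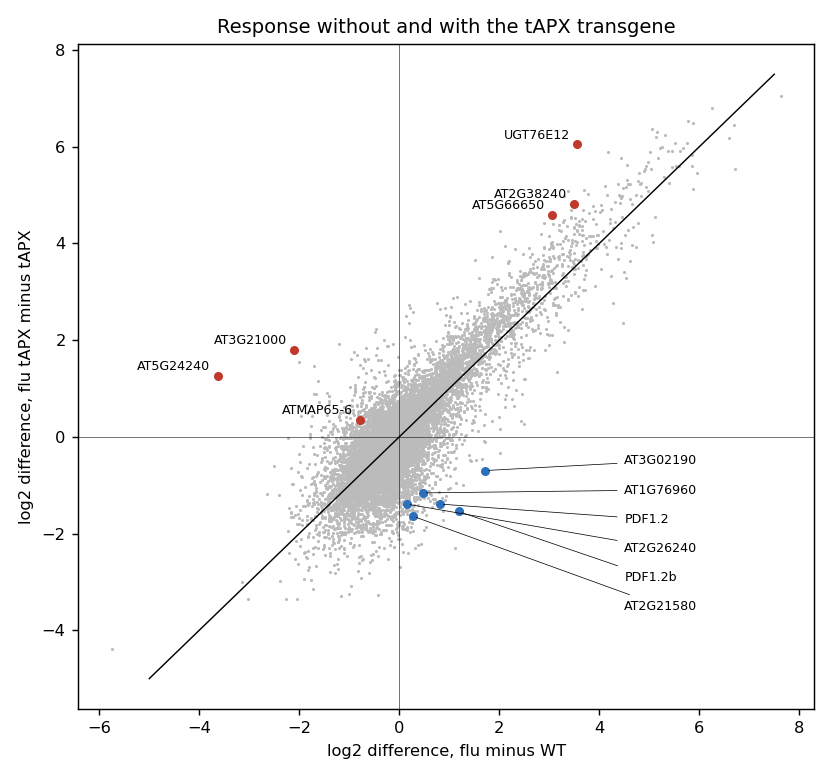
Log2 difference of flu against WT (horizontal) and of flu tAPX against tAPX (vertical) for the 14947 tested probe sets, with the line of equal differences. Named points are the 12 genes with the lowest interaction p, 6 in each direction. No interaction passed (smallest adjusted p 0.719).

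The genes with the smallest interaction p are given as values, since none passed. PDF1.2 had a difference of 0.81 in flu against WT (interaction -2.20 ± 0.40, adjusted p = 0.719 in limma). Its signals were 650 and 336 in WT and 904 and 762 in flu, beside the 1538 and 2065 of tAPX and 694 and 647 of flu tAPX given above. The tAPX arrays were thus above all 6 others. AT5G24240 was at 247 and 427 in WT and 16.4 and 7.32 in flu, and at 10.8 and 8.32 in tAPX and 33.8 and 59.8 in flu tAPX (interaction 4.90 ± 0.80). Only its WT arrays were bright. For UGT76E12 the differences were 6.05 here and 3.56 there, for AT5G66650 4.59 and 3.06, and for AT2G38240 4.82 and 3.49. In UGT76E12 both tAPX arrays (32.1 and 4.40) lay below both WT arrays (149 and 95.4), and the flu arrays were at 1981 and 1256. Of the 12 genes with the lowest interaction p, 6 passed without flu tAPX replicate 1 (PDF1.2, PDF1.2b, AT2G21580, AT2G26240, AT3G02190 and AT5G24240), and these, AT1G76960 and AT3G21000 passed with poly-A scaling.

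The flu tAPX arrays differed from each other more than the tAPX arrays did. The SD of the log2 difference between replicate arrays over all tested probe sets was 0.627 in flu tAPX and 0.356 in tAPX, and 1528 probe sets (10.2%) against 345 (2.31%) were at least 2-fold apart. Array 1 was the brighter in 1005 of the 1528. Measured from the tAPX mean, calmodulin-like and redox genes had medians of 2.88 and -0.02 on array 1 and of 1.75 and -0.84 on array 2, and defensins of -1.09 and -2.23. U-box ligases (1.88 and 2.34) and carbon fixation genes (-0.95 and -0.46) were higher on array 2. Over the 1349 probe sets raised in flu against WT the medians of the arrays were 2.23 and 2.24. Of the 123 probe sets called at least 4-fold lower, 56 had flu tAPX arrays at least 2-fold apart, against 33 of the 369 (2.47% of all) called at least 8-fold higher. Among the genes named for such gaps the widest was in AT1G49975, at 163 and 5.81 in flu tAPX and 523 and 506 in tAPX (-3.09 ± 0.75), not called without tAPX replicate 1 (-3.06) or 2 (-3.11) and at -1.57 without flu tAPX replicate 2. The free-text descriptions give 60 and 120 min of light for these arrays, and the part of light time in their difference was not tested.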

How the data were processed

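RNA of leaf pools was measured on 8 ATH1 arrays, 2 for each of 4 lines. The authors deposited signal intensities made with MAS5, as named in the submitters' processing notes, and they are linear. Version, target value and genome build are not given in the sources. The deposited intensities had a trimmed mean near 500.05 on every array, leaving out 2% of signals at each end, and no depth applies to arrays, whose number limits the precision. Lines were taken from the titles. Of 22810 probe sets, 64 controls were left out, and 14947 that exceeded the 40th percentile of their own array on at least 2 of 8 arrays were tested as log2(signal + 16) with limma 3.58.1 in R 4.3.3. One mean was fitted for each line (4 residual degrees of freedom, variance trend, Benjamini-Hochberg adjustment, threshold 0.05, two-sided), and every adjusted p in the text is from this fit. The script was tested on simulated data. GEO's platform annotation gave 1 gene for 13513 probe sets, several for 503 and none for 8794, and a gene is represented by its brightest tested probe set. Many list entries therefore had no named gene. The tetrapyrrole list had 42 entries and 11 named genes, and the heat shock list 27 and 8. List counts cover only the named and tested members.

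Named genes are the 15 highest and 15 lowest called differences with a signal of at least 100, up to 6 members with the smallest p of each list with 3 or more tested genes, TAPX and SAPX, the 6 lowest interaction p in each direction, the 8 brightest called genes in each direction and the 6 widest gaps between flu tAPX arrays in each direction. Other genes named, and the lists said to be added, were chosen after their values were seen. The members and all lists were chosen with earlier results of these data known. Alternatives covered the pseudocount (1 and 64), the filter (none and the 60th percentile), quantile, median and poly-A scaling (27 probe sets), no variance trend, only 4 arrays, a replicate block and leaving out each array. Nothing says that arrays of a line come from separate plants beyond their pools of experiments, so p-values measure the spread between pools. No sequence is reported here.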

Additional observations from a re-analysis of the deposited data

How the results depend on the processing

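Of 146 genes given with values, 136 were called, and 102 of these kept their call under every alternative in which they were tested (18, without the 60th percentile filter for 4 genes too dim for it). The remaining 34 lost it under at least 1, and none of the 136 changed sign. Poly-A scaling moved the counts most, to 9491 called, 1270 higher and 8221 lower, and the interaction to 1757 with 8 of its 12 named genes called. Leaving out 1 array at a time gave 2825 to 5364 called, 1595 to 2352 higher and 1230 to 3012 lower, 105 to 149 of the named genes called against 142, and 0 to 185 interactions with 0 to 6 named genes. The smallest counts of called probe sets and named genes came without tAPX replicate 2. The cause of these shifts was not tested. Among genes that did not pass, the sign changed with poly-A scaling for TAPX (-0.69), FDH (-0.55) and FMA (-0.44), with quantile normalization for RCA (0.10), and without flu tAPX replicate 1 for RCA and SAPX, whose range over left-out arrays was -0.26 to 0.071 and -0.38 to 0.0037, and without flu tAPX replicate 2 for FMA (-0.050 to 0.52). With the replicate block 5521 probe sets were called, and 8 serine carboxypeptidase-like and 8 plastid-encoded genes were lower, against 5 of each without it. Deviations of replicate 1 from its line mean correlated at -0.0786 between tAPX and flu tAPX, at 0.350 between flu and flu tAPX and at 0.191 between WT and flu tAPX. Not every pair of lines was over 0.1, and no label says that a number marks the same harvests. The arrays were thus taken to share only a number. The free-text descriptions give 60 and 120 min of light to flu arrays 1 and 2, as to those of flu tAPX. Over all tested probe sets, flu tAPX array 1 correlated at 0.972 with flu array 1 and 0.956 with flu array 2. For flu tAPX array 2 these values were 0.935 and 0.954. The part of light time in them was not tested. The interaction could not be fitted on only the arrays of tAPX and flu tAPX. With 2 arrays a line, small differences are beyond what these data can resolve, and dim probe sets have an uncertain size.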
